A study of Mus musculus with 47 samples.

Results

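Complement C1q and its neighbours in the classical pathway were followed in mouse lung through 9 genes: C1qa, C1qb, C1qc, C2, C3, C4b, Cfb, C3ar1 and C5ar1. The members were all probe sets that the array annotation gives to any of these genes in any of the 6 array tables. There were 16 such probe sets, out of 49372 distinct probe set IDs in all, and they covered 8 of the 9 genes, out of 17453 genes annotated on these arrays. C3 was not analysed here. In the 3 tables used for the main comparisons, 9 member probe sets of 7 genes were bright enough to be tested.

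The tissue was lung, and expression was measured as total RNA hybridised to Affymetrix murine U74 arrays. Ragweed mice received ragweed pollen protein with alum, an adjuvant, on days 0 and 3, and ragweed pollen protein alone into the trachea on days 10 and 17. PBS mice received PBS on the same days, and no alum is named for them, so ragweed and alum cannot be told apart here. Lungs were collected 24 h or 72 h after the last challenge, which gives ragweed and PBS groups at 24 h and ragweed and PBS groups at 72 h, with 2 samples each, coded 1a and 1b. The labels do not name the strain, sex or age of the mice, nor whether 1a and 1b were separate animals, so the spread behind the p-values below is that between these samples and may be technical alone. In bulk tissue, more cells of a type and more RNA per cell cannot be told apart.

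C1q is the recognition molecule of the classical complement pathway. Its A, B and C chains, encoded by C1qa, C1qb and C1qc, assemble into a bouquet-shaped protein that binds antibody in immune complexes, pentraxins and dying cells. Bound C1q activates the proteases C1r and C1s, which cleave C4 and C2 to form the classical C3 convertase, while factor B, the product of Cfb, provides the catalytic subunit of the alternative one. The fragments C3a and C5a signal through the receptors encoded by C3ar1 and C5ar1. Most complement proteins of plasma are made in the liver, but C1q is made mainly by macrophages and dendritic cells in the tissues.

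The 3 C1q genes lie side by side on mouse chromosome 4. The promoter windows of C1qb and C1qc are shown because both genes have a RefSeq sequence among the windows used here and both were called higher in ragweed lungs in at least 1 comparison below. Each runs from 250 bases before to 50 bases after the gene's start, is read from the minus strand of GRCm38.p6, and covers chr4:136886151-136886450 for C1qb and chr4:136892865-136893164 for C1qc. Capitals mark matches to the PU.1 core (GAGGAA) or to a Maf half-site core (TGCTGA), 2 short motifs bound by transcription factors of macrophages, on either strand.
C1qb promoter: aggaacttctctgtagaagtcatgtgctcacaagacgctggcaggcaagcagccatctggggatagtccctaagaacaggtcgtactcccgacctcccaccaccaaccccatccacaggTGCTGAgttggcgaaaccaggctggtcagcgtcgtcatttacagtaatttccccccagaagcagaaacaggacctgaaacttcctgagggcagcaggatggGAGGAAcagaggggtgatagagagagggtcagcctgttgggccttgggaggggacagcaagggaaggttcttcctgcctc
C1qc promoter: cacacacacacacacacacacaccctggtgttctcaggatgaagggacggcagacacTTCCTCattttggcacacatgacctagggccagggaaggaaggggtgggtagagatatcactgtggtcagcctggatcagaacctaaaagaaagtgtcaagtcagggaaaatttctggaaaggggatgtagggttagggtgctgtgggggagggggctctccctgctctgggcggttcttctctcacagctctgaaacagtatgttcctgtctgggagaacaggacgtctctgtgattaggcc

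The C1qb window held 1 PU.1 core, 30 bases before the start, and 1 Maf half-site core, which began 131 bases before it. The C1qc window held 1 PU.1 core, on the opposite strand, which began 193 bases before the start, and no Maf half-site core. These letters are common: of 32851 mouse promoter windows of the same length, 28.3% held the PU.1 core and 19.5% the Maf half-site core. Neither window held a TATA box (TATAAA), which 13.6% of all windows held. Neither held a STAT motif, written as TTC and GAA with 3 bases between them (8.30% of windows) or with 4 bases between them (6.95%), nor 2 copies of GAAA separated by 2 bases, the core of an interferon response element (3.44%). These matches describe the sequence, and binding to it was not measured.

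C1qa, C1qb and C1qc were all higher in ragweed than in PBS lungs of the same time, with no overlap between samples, in the probe set that stood for each gene on the A array. C1qa rose 1.81-fold at 24 h and 2.76-fold at 72 h. C1qb rose 5.46-fold at 72 h on the first array version and 2.13-fold on the second. On the first, 1 of the 2 PBS values lay under the floor set for the test and was raised to it. C1qc was 1.64-fold and 1.82-fold higher at the 2 times without passing the test at either, and rose 2.89-fold at 72 h on the second array version. The intensities below are normalised array values, a probe set was called at an adjusted p under 0.05 from limma with Benjamini-Hochberg adjustment over the 25250 probe sets tested, and differences are given on the log2 scale with their standard error. Values under a floor, an intensity of 291.6 on the first-version A array, were raised to the floor before the test.

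C1qa (98562_at), the A chain, had intensities of 2765 and 2926 in ragweed lungs at 24 h, against 1476 and 1667 in PBS lungs. At 72 h it had 5683 and 5867 in ragweed lungs, against 2190 and 1998 in PBS lungs. The groups did not overlap at either time, and the ragweed lungs of 72 h stood above all other samples. The difference between ragweed and PBS was 0.86 ± 0.11 at 24 h (adjusted p = 0.0304, limma, n = 2 each) and 1.46 ± 0.11 at 72 h (adjusted p = 0.00164, limma). Between the times, ragweed lungs of 72 h exceeded those of 24 h by 1.02 ± 0.11 (adjusted p = 0.0136, limma), while PBS lungs of 72 h exceeded those of 24 h by 0.42 ± 0.11 without passing the test (adjusted p = 0.312, limma). At 24 h the call depended on the PBS samples it was set against: relative to the PBS lungs of 72 h the difference was 0.44 (adjusted p = 0.206, limma). It was also lost when any 1 of the 8 samples was left out, with adjusted p between 0.0831 and 0.151. The call between the ragweed times was lost without any 1 of the 4 ragweed samples, with adjusted p from 0.0771 to 0.152. The 72 h call against PBS held in each of these fits.

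C1qb (96020_at), the B chain, had intensities of 930 and 1171 in ragweed lungs at 24 h, against 424 and 520 in PBS lungs. At 72 h it had 1884 and 2450 in ragweed lungs, against 532 and 222 in PBS lungs, the last value being under the floor. Again no PBS sample reached a ragweed sample of its time. The difference was 1.15 ± 0.33 at 24 h, which did not pass the test (adjusted p = 0.332, limma), and 2.45 ± 0.33 at 72 h, which did (adjusted p = 0.0217, limma). Without the PBS sample of 72 h that lay under the floor, the 72 h difference was 2.01 (adjusted p = 0.123, limma). The call was also lost without any 1 of 6 other samples, with adjusted p up to 0.161, and held only without PBS 72 h sample 1a (adjusted p = 0.0498). Over both times, a comparison added after seeing the data, C1qb averaged 1.80 ± 0.23 higher (adjusted p = 0.0189, limma). That call held only without PBS 72 h sample 1a or 1b among the 8 samples. With probe sets of low signal also tested, it was lost (adjusted p = 0.0915, limma).

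C1qc (92223_at), the C chain, had intensities of 3658 and 3410 in ragweed lungs at 24 h, against 2461 and 1876 in PBS lungs. At 72 h it had 4160 and 4726 in ragweed lungs, against 2426 and 2453 in PBS lungs. The 4 PBS samples lay below all 4 ragweed samples. Neither the difference of 0.72 ± 0.14 at 24 h (adjusted p = 0.150, limma) nor that of 0.86 ± 0.14 at 72 h (adjusted p = 0.0547, limma) passed the test. Averaged over both times, with 4 ragweed and 4 PBS samples, the difference was 0.79 ± 0.10 and passed it (adjusted p = 0.0182, limma). This comparison was added after seeing the data. With probe sets of low signal also tested, the call was lost (adjusted p = 0.0815, limma). That call was lost without any 1 of the ragweed samples or the PBS samples of 72 h, with adjusted p from 0.0659 to 0.105, and without a mean-variance trend (adjusted p = 0.0781), while the 72 h difference passed without PBS 24 h sample 1a (adjusted p = 0.0334) or 1b (adjusted p = 0.0344). The other C1qc probe set, 136279_at on the C array, had 733 and 1360 in ragweed lungs at 24 h, against 859 and 957 in PBS lungs, and 1044 and 881 in ragweed lungs at 72 h, against 739 and 842 in PBS lungs. Its differences of 0.14 ± 0.42 and 0.28 ± 0.42 were smaller than their errors. The 95% interval of the 72 h difference ran from -0.69 to 1.25, which includes the 0.86 of 92223_at on the first-version A array. On the first version of the C array the 72 h difference of 136279_at was -0.29 ± 0.47. Its interval there, from -1.35 to 0.76, does not include 0.86. The 1.53 of 92223_at on the second version of the A array lies outside both intervals.

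**Figure D1:**
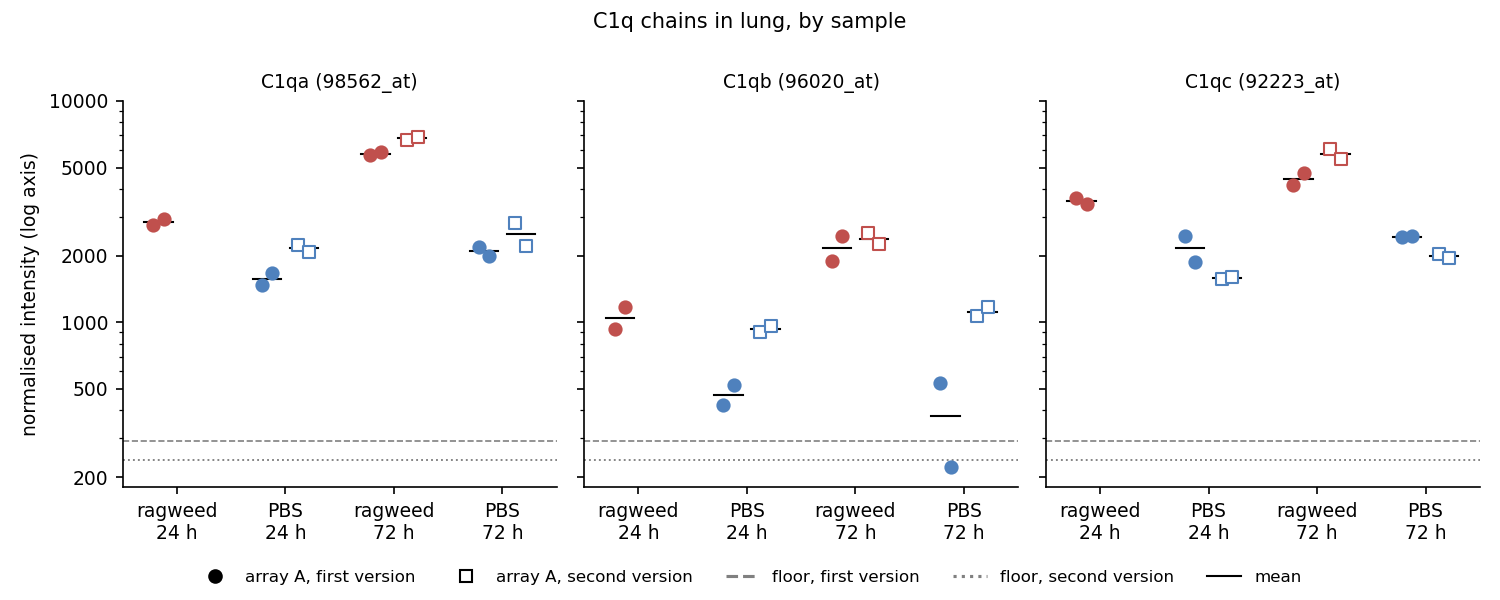
Normalised intensity (log axis) of C1qa, C1qb and C1qc in each lung sample, ragweed and PBS at 24 h and at 72 h; filled circles are the first version of the A array, open squares the second, short lines are group means and dashed and dotted lines are the floors. No PBS sample reaches a ragweed sample of the same time and array version, and C1qb is the chain whose PBS values differ most between the versions, 532 and 222 in PBS lungs at 72 h on the first against 1066 and 1168 on the second.

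The samples of 72 h, and the PBS samples of 24 h, were also measured on the second version of the A array, whose arrays the authors had all scaled alike. There C1qa had 6661 and 6886 in ragweed lungs at 72 h, against 2807 and 2212 in PBS lungs, a difference of 1.44 ± 0.14 (adjusted p = 0.0185, limma). C1qb (96020_at) had 2522 and 2250 in ragweed lungs, against 1066 and 1168 in PBS lungs, a difference of 1.09 ± 0.14 (adjusted p = 0.0486, limma). C1qc (92223_at) had 6057 and 5465 in ragweed lungs, against 2028 and 1961 in PBS lungs, a difference of 1.53 ± 0.11 (adjusted p = 0.00655, limma). All 3 chains therefore passed the test on the second version of the A array. The adjustment ran over 26995 probe sets of second-version A and first-version B and C, of which 0.237% passed at 72 h. The size of the C1qa difference was nearly the same on both versions, while that of C1qb was smaller and that of C1qc larger on the second. A further C1qb probe set of the second version, 162276_i_at, had 582 and 869 in ragweed lungs at 72 h, against 430 and 398 in PBS lungs, and its difference of 0.78 ± 0.31 did not pass (adjusted p = 0.462, limma). The last C1qb probe set, 100646_f_at, is on the first version alone and was left out of the tests. It had 436 and 338 in ragweed lungs at 72 h, against 329 and 87.1 in PBS lungs, and at 24 h 331 and 192 in ragweed lungs against 495 and 96.0 in PBS lungs, so at 24 h the groups overlapped.

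Of the later members of the pathway, none passed the test between ragweed and PBS lungs of the same time. C4, cleaved by C1s, was measured by 103033_at, which the annotation gives to both C4b and its paralogue C4a, so their transcripts cannot be told apart. This probe set had 2601 and 2663 in ragweed lungs at 24 h, against 2180 and 2491 in PBS lungs, and 4002 and 3977 in ragweed lungs at 72 h, against 3079 and 2601 in PBS lungs. The ragweed samples lay above the PBS samples at both times. The differences were 0.18 ± 0.12 (adjusted p = 0.759, limma) and 0.50 ± 0.12 (adjusted p = 0.190, limma). Relative to PBS lungs of 24 h, the ragweed lungs of 72 h were 0.78 ± 0.12 higher and passed (adjusted p = 0.0297, limma), a contrast that includes the difference between the PBS times of 0.28 ± 0.12. On the second array version the 72 h difference was 0.31 ± 0.14 (adjusted p = 0.513, limma). Relative to PBS lungs of 24 h it was 0.40 ± 0.14 there and did not pass (adjusted p = 0.244, limma). The other C4 probe sets, 137169_at and 162390_r_at, were at or below the floor in most samples and were not tested.

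C2 supplies the protease of the classical C3 convertase, and its 2 tested probe sets did not move together. On the A array 103673_at had 710 and 860 in ragweed lungs at 24 h, against 991 and 735 in PBS lungs, and 725 and 1147 in ragweed lungs at 72 h, against 811 and 777 in PBS lungs. The groups overlapped at both times, and the 95% interval of the difference ran from -0.79 to 0.54 at 24 h and from -0.47 to 0.87 at 72 h. The second array version gave a 72 h difference of 0.21 ± 0.29. On the C array 167672_f_at had 199 and 123 in ragweed lungs at 24 h, both under that table's floor of 244.7, against 972 and 535 in PBS lungs, and 280 and 176 in ragweed lungs at 72 h, against 608 and 368 in PBS lungs. Ragweed samples lay below PBS samples at both times, but the differences of -1.56 ± 0.49 (adjusted p = 0.373, limma) and -0.85 ± 0.49 (adjusted p = 0.661, limma) did not pass. The suffix of this probe set marks probes shared within a sequence family, so its signal may not be that of C2 alone. The remaining C2 probe set, 162366_r_at, was under the floor in all 6 samples of its table.

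Factor B gave little signal. On the first version its probe set 100609_at was under the floor in 7 of 8 samples, the exception being 354 in PBS sample 1b of 24 h. On the second version it was under the floor in 5 of 6 samples, the exception being 418 in ragweed sample 1b of 72 h, and 161365_r_at was under the floor in all 6 samples of its table. Neither was tested on the 3 main tables, and a difference in Cfb was not detectable at this signal.

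Neither anaphylatoxin receptor was called. C3ar1 (103707_at), the receptor for C3a, had 460 and 441 in ragweed lungs at 24 h, against 282 and 353 in PBS lungs, and 535 and 394 in ragweed lungs at 72 h, against 240 and 200 in PBS lungs. Every ragweed sample exceeded the floor, while 3 of the 4 PBS samples, of both times, lay under it. The fitted differences are therefore limited by the floor. They were at least 0.49 ± 0.20 at 24 h (adjusted p = 0.550, limma) and at least 0.65 ± 0.20 at 72 h (adjusted p = 0.322, limma). On the second version C3ar1 had 564 and 591 in ragweed lungs at 72 h, against 437 and 240 in PBS lungs, a difference of 0.83 ± 0.30 (adjusted p = 0.418, limma). C5ar1 (101728_at), the receptor for C5a on myeloid cells, had 1335 and 1245 in ragweed lungs at 24 h, against 817 and 1044 in PBS lungs, a difference of 0.48 ± 0.20 (adjusted p = 0.550, limma). At 72 h C5ar1 had 1108 and 930 in ragweed lungs, against 1137 and 1089 in PBS lungs, and the groups overlapped. Its 72 h difference was -0.13 ± 0.20 here and 0.37 ± 0.31 on the second version, so its sign at that time depends on the array version.

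**Figure D2:**
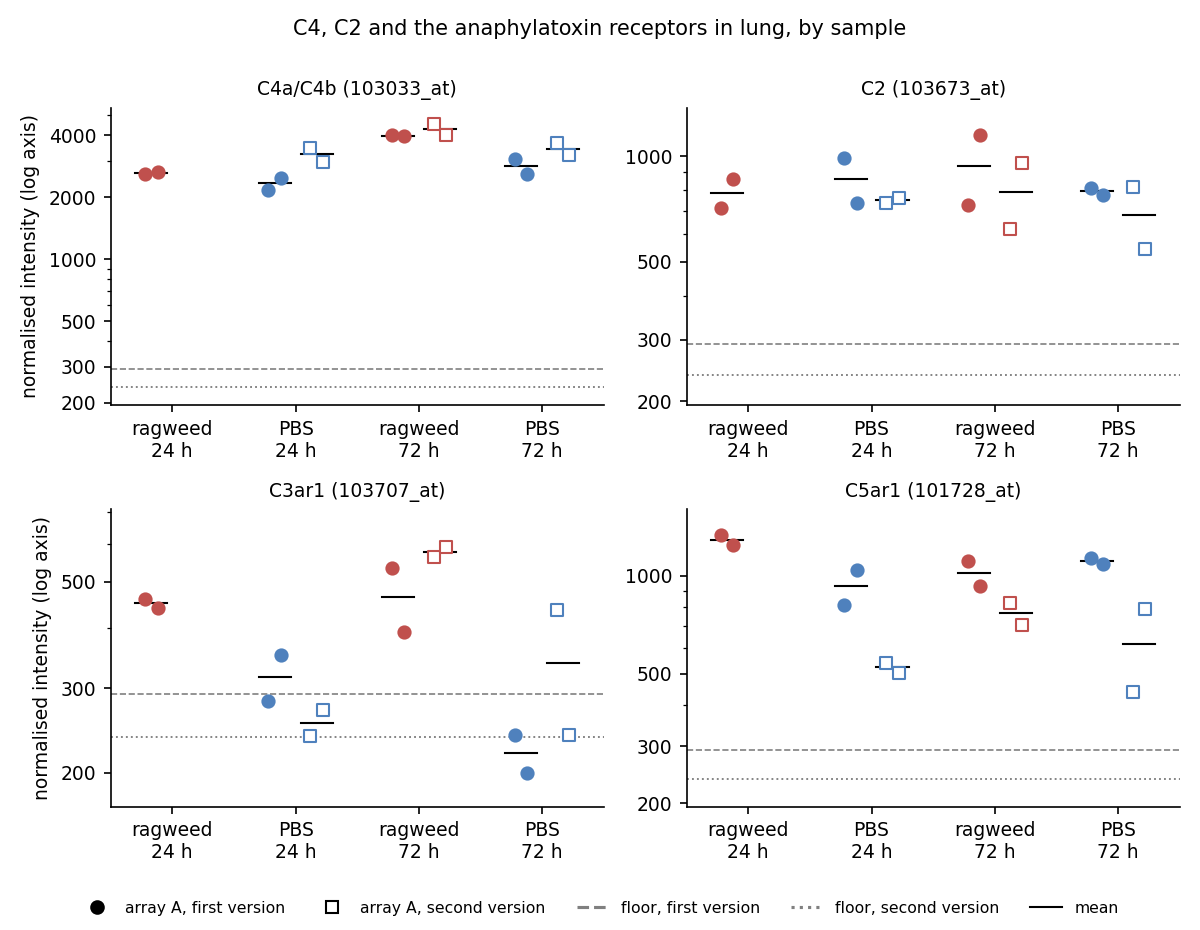
Normalised intensity (log axis) of C4a/C4b, C2, C3ar1 and C5ar1 in each lung sample, drawn as in the plot of the C1q chains, with filled circles for the first and open squares for the second version of the A array. C4a/C4b and C3ar1 lie higher in ragweed than in PBS samples of the same time on both versions, whereas C2 and, at 72 h, C5ar1 overlap.

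Counted over the 9 tested member probe sets, 1 was called higher and none lower at 24 h, where 0.230% of all tested probe sets were called. At 72 h 2 were called higher, C1qa and C1qb, and none lower, where 0.527% of all were called. The median difference of the 9 was 0.48 at 24 h and 0.50 at 72 h, against a median of 0 over all tested probe sets at both times. In the mean of both times, a comparison added after seeing the data, 3 were called, 1 for each C1q chain, against 0.650% of all. Against the PBS lungs of 24 h, ragweed lungs of 72 h had 4 called, the C1q chains and C4a/C4b, against 0.935% of all. C4a/C4b did not pass that contrast on the second array version. The 9 probe sets share samples and 2 genes are represented by 2 probe sets each, so these counts are not counts of independent results.

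The difference between ragweed and PBS was larger at 72 h than at 24 h by 0.61 ± 0.16 for C1qa and by 1.30 ± 0.47 for C1qb, but limma called no member for this difference between times, with adjusted p of 0.485 for C1qa and 0.615 for C1qb. Those were the 2 members with an unadjusted p under 0.05, and 0.0356% of all probe sets were called. For C1qc the difference between times was 0.14 ± 0.20, with a 95% interval from -0.32 to 0.61. For C5ar1 it was -0.61 ± 0.28 (adjusted p = 0.697, limma). Between the PBS lungs of 72 h and 24 h limma called no member, 2 had an unadjusted p under 0.05, and 0.281% of all probe sets were called. Between the ragweed lungs of the 2 times C1qa alone was called, against 0.305% of all. These contrasts share samples with the comparisons of ragweed and PBS.

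**Figure D3:**
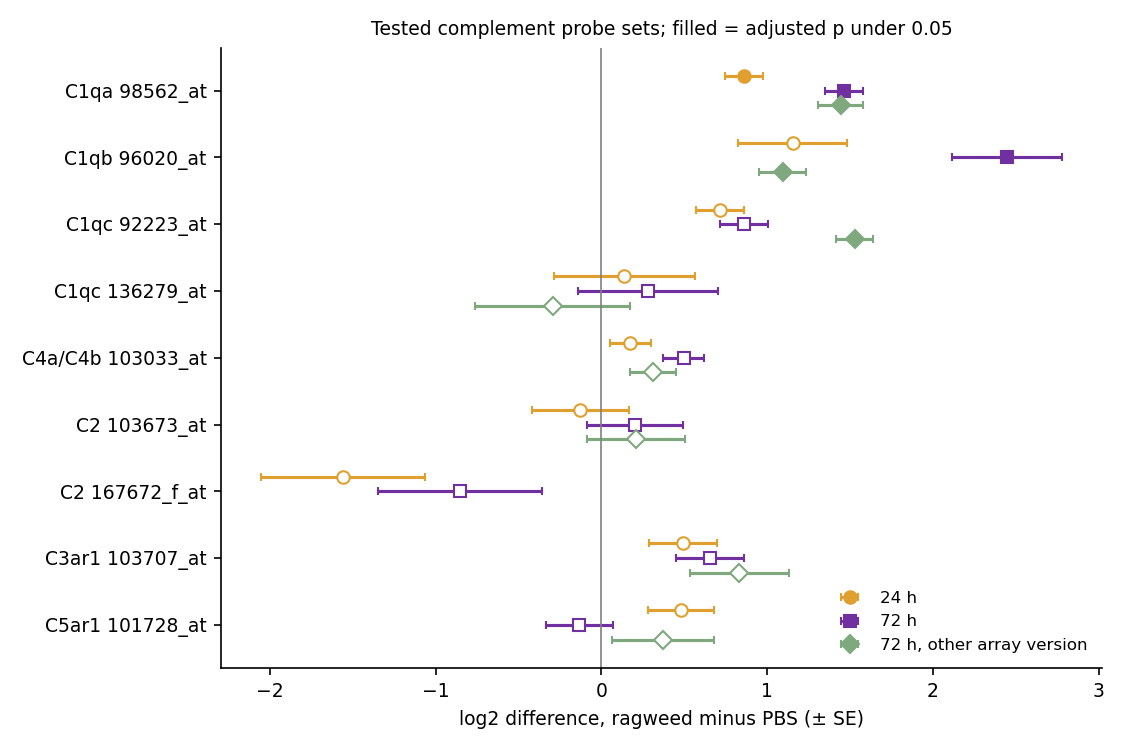
Log2 difference between ragweed and PBS lungs (horizontal axis, bars ± SE) for the 9 tested member probe sets at 24 h, at 72 h and at 72 h on the other array version; filled symbols passed an adjusted p under 0.05. The 3 C1q chains lie to the right of 0 in each comparison, the other C1qc probe set lies near 0, and 167672_f_at of C2 is the only one below 0 at both times by more than its SE.

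Across the 8 samples of the first-version A array the 3 C1q chains followed one another, with r = 0.92 between C1qa and C1qb, 0.91 between C1qa and C1qc, and 0.89 between C1qb and C1qc. C4a/C4b followed C1qa with r = 0.92, C1qb with r = 0.79 and C1qc with r = 0.72, and C3ar1 followed the 3 chains with r between 0.72 and 0.80. C2 and C5ar1 did not, with r between 0.13 and 0.31 against the chains, and were opposed to each other at r = -0.69. These values describe samples that share their hybridisations, and much of each r is the difference between the groups.

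Of the other genes of the complement system, Hc was called on the main tables and Itgax on the second array version. Of 44 listed genes, 27 were tested, 9 had no probe set that was both bright enough to test and assigned to 1 gene, and 8 were not analysed here. Hc, which encodes C5, the source of C5a and of the first component of the membrane attack complex, was called higher at both times. Hc (103458_at) had 4529 and 4804 in ragweed lungs at 24 h, against 1973 and 2218 in PBS lungs, and 5790 and 5999 in ragweed lungs at 72 h, against 2991 and 2581 in PBS lungs. No PBS sample reached a ragweed sample. The differences were 1.16 ± 0.11 (adjusted p = 0.00528, limma) and 1.08 ± 0.11 (adjusted p = 0.00625, limma). On the second array version Hc had 7745 and 7057 in ragweed lungs at 72 h, against 5043 and 3750 in PBS lungs, and the difference of 0.77 ± 0.16 did not pass (adjusted p = 0.178, limma). The 72 h call was also lost without ragweed 72 h sample 1a, ragweed 72 h sample 1b or PBS 72 h sample 1b, with adjusted p from 0.0719 to 0.0795, and the 24 h call without either ragweed 24 h sample, with adjusted p of 0.0623 and 0.0771. Both calls were lost without a mean-variance trend, with adjusted p of 0.0626 at 24 h and 0.0543 at 72 h.

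The 26 other complement genes tested were not called in any comparison on the main tables. On the second array version Itgax, encoding the alpha chain of complement receptor 4 (CD11c), had 2839 and 2608 in ragweed lungs at 72 h, against 1191 and 1095 in PBS lungs, and was called at 1.25 ± 0.16 (adjusted p = 0.0456, limma), whereas on the first it was at 0.51 ± 0.23 (adjusted p = 0.535, limma). The differences of the 26 genes on the main tables ran from -0.68 to 0.59 at 24 h, with 16 above 0, and from -0.69 to 0.67 at 72 h, with 13 above 0. The brightest were Serping1, the inhibitor of C1r and C1s, at -0.34 ± 0.09 and -0.30 ± 0.09 (adjusted p = 0.304 and 0.329, limma), and Cd93, a membrane protein once taken for a C1q receptor, at -0.03 ± 0.15 and -0.26 ± 0.15. The classical protease gene C1s1 was at 0.19 ± 0.25 and 0.06 ± 0.25, the lectin pathway protease gene Masp1 at 0.02 ± 0.43 and -0.26 ± 0.43, and the terminal component C6 at 0.18 ± 0.17 and 0.27 ± 0.17. Clu, whose product clusterin holds back the membrane attack complex, was at -0.68 ± 0.14 (adjusted p = 0.155, limma) and -0.17 ± 0.14. None of these 6 genes passed the test at either time. On the second array version the 72 h difference of Clu was larger, at -0.65 ± 0.10, also without passing (adjusted p = 0.0843, limma). Cd93 was at -0.58 ± 0.18 there and Serping1 at -0.21 ± 0.13, and neither passed. On the main tables the median over the 27 genes was 0.03 at 24 h and 0.01 at 72 h.

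**Figure D4:**
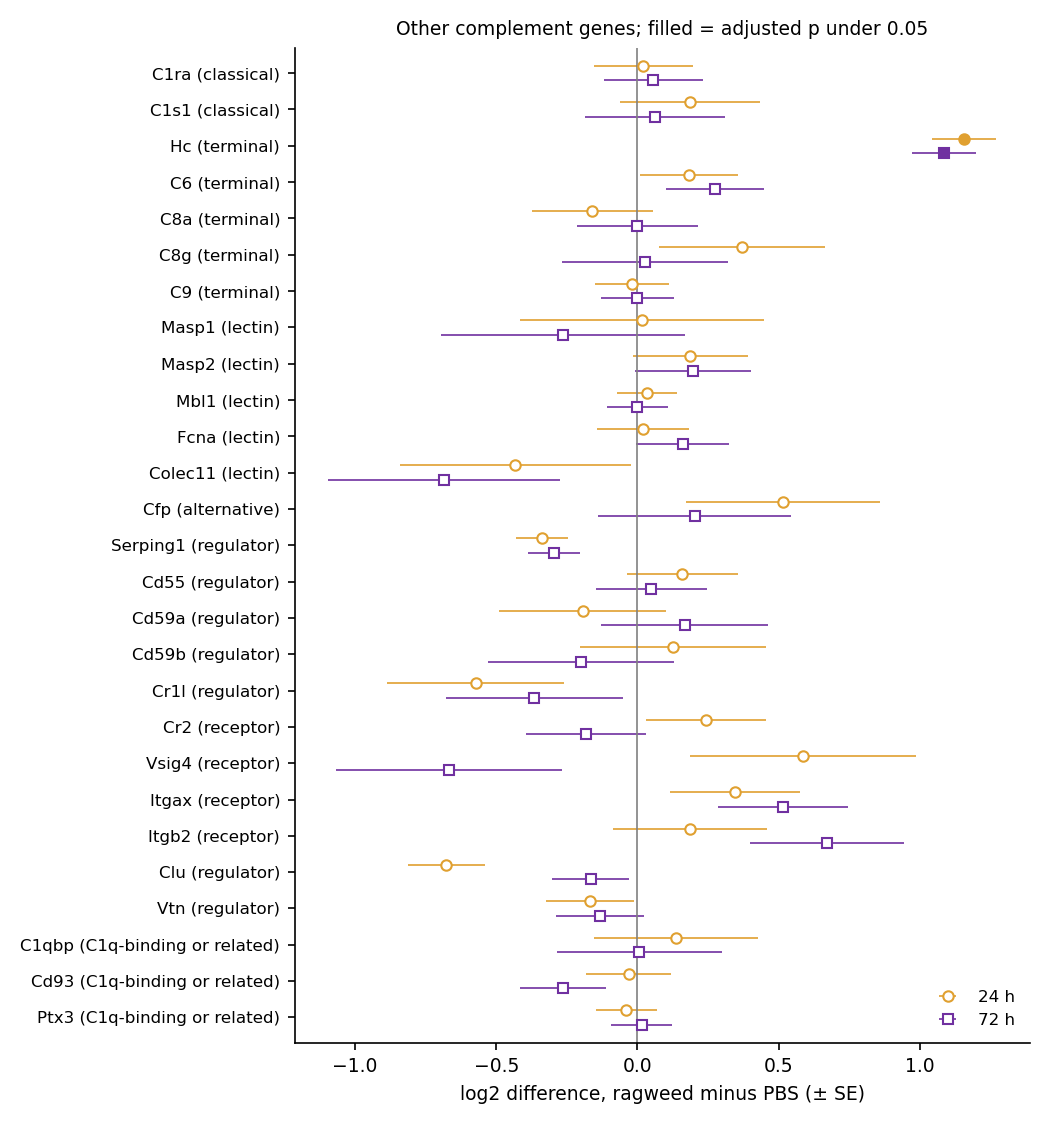
Log2 difference between ragweed and PBS lungs (horizontal axis, bars ± SE) at 24 h (circles) and 72 h (squares) for the 27 other complement genes tested, with the part of the system each belongs to; filled symbols passed an adjusted p under 0.05. The values are those of the main tables, on which Hc, at 1.16 and 1.08, is the single gene with filled symbols, and the others lie on both sides of 0.

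Markers of the cells a lung sample can hold were measured in the same samples. Surfactant and other lung epithelial genes, which define the tissue, were bright, and their 8 tested markers summed to between 224816 and 268910 in every sample. Of markers of macrophages, cells that make C1q, 10 of 14 were tested. Ctss, a lysosomal protease, was called higher at 24 h, and Ctss and Mpeg1, a pore-forming protein of phagocytes, at 72 h. The Mpeg1 call was close to the threshold, at 1.38 ± 0.23 (adjusted p = 0.0498, limma). On the second array version Mpeg1 had 2852 and 4118 in ragweed lungs at 72 h, against 3172 and 3338 in PBS lungs. The groups overlapped there, at 0.07 ± 0.18 (adjusted p = 0.941, limma). Ctss was called on that version too, at 1.09 ± 0.12 (adjusted p = 0.0325, limma). Mrc1, the macrophage mannose receptor, was at 1.71 ± 0.27 at 24 h (adjusted p = 0.0598, limma) and 0.83 ± 0.27 at 72 h (adjusted p = 0.346, limma), and was called higher in the mean of both times, at 1.27 ± 0.19 (adjusted p = 0.0316, limma). The median difference of macrophage markers was 0.34 at 24 h and 0.69 at 72 h. The summed intensity of the 10 markers was 45838 to 47357 in ragweed lungs at 24 h, against 54086 to 61643 in PBS lungs, and 54010 to 64030 in ragweed lungs at 72 h, against 51344 to 55727 in PBS lungs. Lyz2, the lysozyme gene, carried much of that sum, at 27321 in both ragweed samples of 24 h, against 41672 and 49622 in PBS lungs. Without it the 9 others summed to 18516 to 20036 in ragweed lungs at 24 h, against 12021 to 12414 in PBS lungs, and to 27226 to 28082 in ragweed lungs at 72 h, against 13482 to 14054 in PBS lungs. Thus without Lyz2 the sum was higher in ragweed lungs at both times, and with it the sum was lower at 24 h and overlapped at 72 h. Ctss carried much of the sum without Lyz2, at 9608 and 9706 in ragweed lungs at 24 h, against 5247 and 4939 in PBS lungs. At 24 h Fcgr1 was at -0.45 ± 0.29 and Csf1r at -0.02 ± 0.15. Cd14 was at 0.15 ± 0.17 and Mpeg1 at 0.16 ± 0.23. Cd163 was at 0.52 ± 0.32, Cd68 at 0.55 ± 0.15 and Siglec1 at 0.83 ± 0.53. None of these was called at that time. Lyz2 itself was called at neither time, at -0.73 ± 0.15 at 24 h and -0.36 ± 0.15 at 72 h, and its sign at 72 h depended on the array version, with 0.59 ± 0.17 on the second. The macrophage markers Adgre1 and Marco were not tested. No dendritic cell marker was called among 4 tested. Of 4 monocyte markers tested none was called at either time, but Plac8 was called higher in the mean of both times, at 0.55 ± 0.08 (adjusted p = 0.0246, limma), and in PBS lungs of 72 h relative to those of 24 h, at 0.94 ± 0.11 (adjusted p = 0.0156, limma).

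B and plasma cell markers had 5 of 7 tested, with Jchain called higher at 24 h and Cd22, Jchain and Mzb1 at 72 h. The median difference of the 5 was -0.03 at 24 h and 1.38 at 72 h, so they did not rise together at 24 h. Their summed intensity was 3654 to 4756 in ragweed lungs at 24 h, against 2842 to 3467 in PBS lungs, and 10875 to 11536 in ragweed lungs at 72 h, against 4768 to 5200 in PBS lungs. Like C1qa, this sum was therefore highest in ragweed lungs of 72 h. Markers of hepatocytes, the main source of circulating complement, had 3 tested and none called, with sums of 1078 to 1112 in ragweed lungs at 24 h, against 1324 to 1393 in PBS lungs, and of 1551 to 1679 in ragweed lungs at 72 h, against 1084 to 1740 in PBS lungs. No interferon-induced gene was called among 10, and their median difference was 0.20 at 24 h and 0.34 at 72 h. The 10 summed to 10304 to 10629 in ragweed lungs at 24 h, against 7776 to 9383 in PBS lungs. At 72 h the sum was 12803 to 13274.5 in ragweed lungs, against 9922 to 10515 in PBS lungs, so it was higher in ragweed lungs at both times. Scgb1a1, the club cell secretoglobin, was called higher at 24 h, at 1.27 ± 0.12 (adjusted p = 0.00404, limma), and in PBS lungs of 72 h relative to those of 24 h, also at 1.27 ± 0.12 (adjusted p = 0.00570, limma). Of fibroblast markers, Col1a1 was called lower at 72 h, at -0.64 ± 0.10 (adjusted p = 0.0339, limma). Of endothelial markers, Cdh5 and Kdr were called lower in the mean of both times, at -0.55 ± 0.09 (adjusted p = 0.0353, limma) and -0.78 ± 0.13 (adjusted p = 0.0464, limma). Heart and muscle markers differed between the PBS times. Their sum was 22898 to 23889 in PBS lungs at 72 h, against 10497 to 11237 in PBS lungs at 24 h. In ragweed lungs it was 13491 to 13544 at 72 h, against 12801 to 14850 at 24 h. Between ragweed and PBS lungs, 1 of the 6 markers was called higher at 24 h and 2 were called lower at 72 h. The median difference was -0.42 at 24 h and -0.94 at 72 h. The part of these cell markers in the C1q and Hc differences was not tested.

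The genes whose profile was most like that of each C1q chain were taken from 5457 other genes tested on the same table, by Pearson's r over the 8 samples. For C1qa they were Igkv6-14, an immunoglobulin kappa variable gene (r = 0.99), Vwf, encoding von Willebrand factor (r = 0.98), and H2-Aa, encoding an MHC class II chain (r = 0.98). For C1qb they were Usp34 (r = 0.97), AI506816 (r = 0.96) and Pim2 (r = 0.96). For C1qc they were Igkv9-120, also an immunoglobulin kappa variable gene (r = 0.98), Ctss (r = 0.97) and AI506816 (r = 0.97). With 8 samples in 4 groups and this many genes, a high r is readily found, and it describes these samples.

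Among those genes Ctss had 9608 and 9706 in ragweed lungs at 24 h, against 5247 and 4939 in PBS lungs, and 13846 and 15034 in ragweed lungs at 72 h, against 6466 and 5821 in PBS lungs. It was called at both times, at 0.92 ± 0.09 (adjusted p = 0.00596, limma) and 1.23 ± 0.09 (adjusted p = 0.00140, limma). H2-Aa was at 0.46 ± 0.09 at 24 h (adjusted p = 0.157, limma) and was called at 72 h, at 0.73 ± 0.09 (adjusted p = 0.0179, limma). Igkv6-14 had 1040 and 1020 in ragweed lungs at 24 h, against 50.5 and 42.0 in PBS lungs, both under the floor, and 3965 and 3803 in ragweed lungs at 72 h, against 661 and 699 in PBS lungs. Igkv6-14 and Igkv9-120 were called higher at both times. Both are measured by probe sets with the _f_at suffix, which marks probes shared within a sequence family. The signal given for Igkv6-14 and Igkv9-120 may therefore not be that of these genes alone. The other 4 genes, Vwf, Usp34, AI506816 and Pim2, were called at neither time. Like C1qa, Igkv6-14 and H2-Aa had their highest intensities in ragweed lungs of 72 h. Both were picked for their likeness to C1qa in these same samples, so this shared peak is not a separate result.

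**Figure D5:**
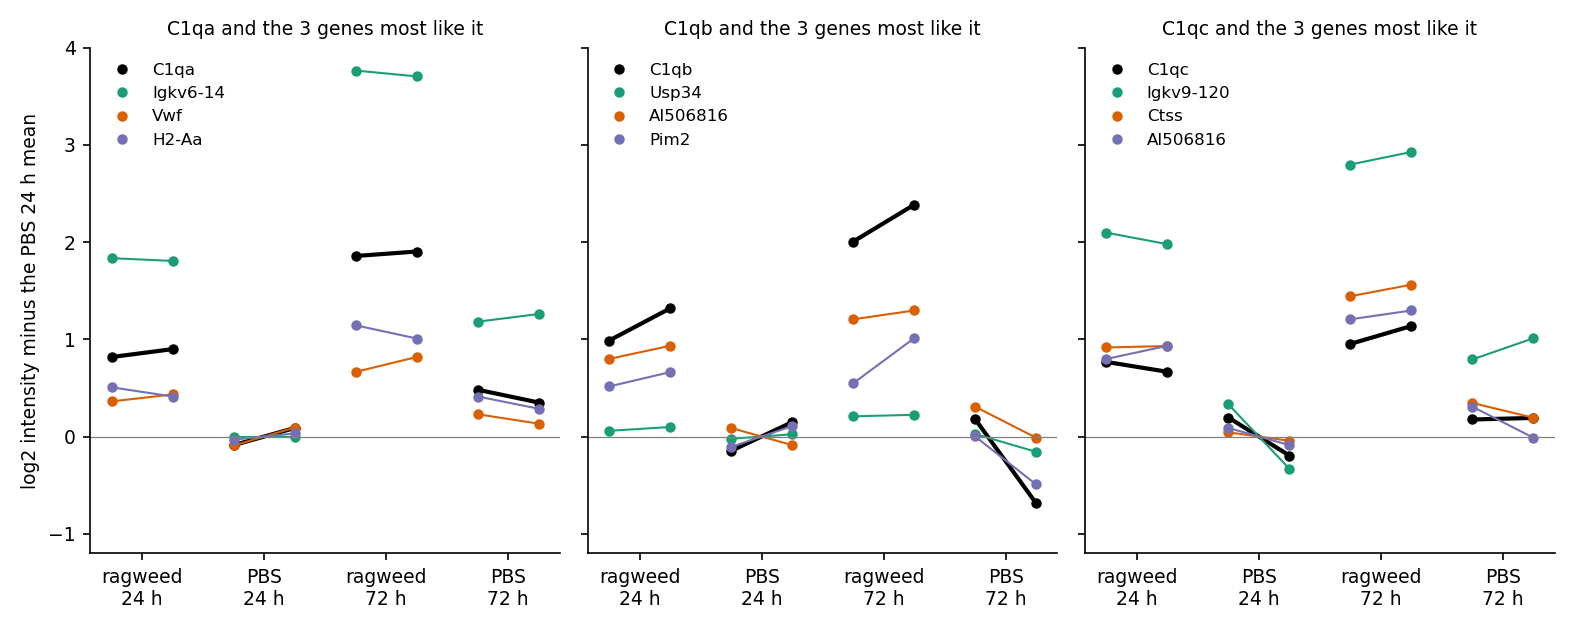
Log2 intensity minus the mean of the PBS 24 h samples (vertical axis, values under the floor raised to it) for each C1q chain (black) and the 3 genes most like it (colours) in the 8 lung samples; a line joins the 2 samples of a group. In each panel the chain is lowest in PBS and highest in ragweed lungs of 72 h, and Igkv6-14 and Igkv9-120 move over a wider range than the chains they resemble.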

How the data were processed

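The deposited values were linear array intensities, 1 per probe set and array, from 47 arrays. The software behind them: not given in the sources used here. The authors had scaled the second-version arrays and the coded first-version ragweed arrays to a 2% trimmed mean near 800, but not the first-version PBS arrays, so on first-version arrays scaling and treatment cannot be told apart in the deposited values. An uncoded ragweed array of 24 h equalled sample 1a divided by 2.63 throughout and was left out, which leaves 46 arrays.

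The main tables were first-version A, restricted to 9977 probe set IDs shared with the second version, brought to a trimmed mean of 800 and then quantile normalised, and second-version B and C as deposited. Values under the 40th percentile of a table were raised to it. The test took in the probe sets above it on at least 2 arrays, which were 6896 for A, 9190 for B and 9164 for C. The other array version (A second version, B and C first version) was an alternative and has no ragweed 24 h arrays on A.

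Each table was fitted on the log2 scale with limma 3.58.1 in R 4.3.3, 1 mean per group and a mean-variance trend, and p-values were adjusted by Benjamini-Hochberg over the 3 tables. The fit was tested on simulated data. The mean of both times was added after seeing the data. Symbols were updated by gene ID. Each listed gene was represented by 1 single-symbol probe set, A before B before C, then the brightest. Promoters are RefSeq windows of GRCm38.p6, found for 5 of the 9 genes. The members and lists were chosen with earlier results of these data known. The genes named were every member, listed complement genes that were called with the 6 brightest others, and the 3 genes most like each called member. The main fit did not pair samples by their codes 1a and 1b. Deviations of same-coded samples correlated between -0.08 and 0.04, which cannot show that the codes mark no pairs.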

Additional observations from a re-analysis of the deposited data

How the results depend on the processing

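The C1qa call at 72 h held under all 20 alternatives, with adjusted p up to 0.0380. Its 24 h call, the single member called at that time, was lost (0 called) without the mean-variance trend, with the replicate block (adjusted p = 0.0589), relative to the PBS lungs of 72 h and in all leave-one-out fits. The members called at 72 h numbered 1 without a filter, 4 relative to PBS of 24 h and 4 relative to PBS of both times, against 2 as reported. They numbered 1 to 2 when 1 sample was left out. In the mean of both times they numbered 1 without a filter, 2 without the trend and 1 to 2 with a sample left out, against 3. C1qa alone was called between the ragweed times, and this call was lost (0) without the trend, and the count ranged from 0 to 1 with a sample left out. Over all probe sets, the 58 calls at 24 h became 90 with an offset and no floor, 121 without a filter, 91 with adjustment within tables and 22 to 41 with a sample left out. The 133 calls at 72 h became 64 on the other array version, 80 without the trend, 236 relative to PBS of 24 h, 238 relative to PBS of both times and 25 to 87 with a sample left out. The cause of these shifts was not tested, except that leaving out a sample leaves fewer samples. Where it leaves 1 sample in a group, that sample is assumed to vary like the others. No called difference changed sign. Among the uncalled differences of the members and Hc, 35 values changed sign under an alternative. The other array version gives no 24 h value. With the replicate block no other member's call changed in any comparison. Signal near the floor limits what can be said of Cfb, C3ar1 and the C array probe set of C2.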
